A study of Sus scrofa with 35 samples.

Results

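The myogenic regulatory factors MYOD1, MYF5, MYF6 and MYOG were examined together with 6 genes tied to the building or repair of muscle fibres: CDH15, DES, VIM, MYBPH, ACTC1 and ANKRD1. A gene was represented by every non-control probe that carried its symbol as GeneName in the scanner files, whatever the case of the letters. This rule found 19 of the 60305 non-control probes, for 9 of the 10 genes. ANKRD1 had no probe under that symbol. Its older name CARP, gene IDs and RefSeq accessions added 8 probes (4 of ANKRD1, 3 of MYF5 and 1 of VIM), which gave 27 probes for all 10 genes.

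The 35 arrays were hybridised with RNA of longissimus dorsi, the long muscle of the back, from castrated male growing pigs, 1 array for each animal. Creole pigs, a breed of the Caribbean, were compared with Large White pigs and with their F1 cross, at thermoneutrality (TN) or under heat stress (HS). There were 6 arrays in Creole TN, Creole HS, F1 TN, Large White TN and Large White HS, and 5 in F1 HS. The temperature label read 24 °C in TN and 30 °C in HS, but the protocol for rearing stated 32 °C over 5 days for the challenge. Slaughter of the TN pigs preceded the warm phase and that of the HS pigs ended it, so that temperature, slaughter day and pen cannot be told apart. The animals came in blocks of littermates that the labels do not name, and the p-values below treat them as independent. The tissue was checked against 8 markers of skeletal muscle: 7 had a probe, and all 7 were well above background on all arrays.

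The 4 myogenic factors are transcription factors that bind DNA as dimers with E proteins. MYF5 and MYOD1 set and keep the myogenic fate and act in satellite cells, the stem cells of muscle, when these divide. MYOG switches dividing myoblasts to differentiation, and MYF6 is the factor kept at the highest level in adult fibres. New and regenerating fibres are known to pass through a stage in which they make vimentin, nestin, cardiac actin, cardiac troponin T and the fetal acetylcholine receptor, before the adult set replaces them.

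MYBPH was lower under HS in each alternative run, so its probes are shown first. They are written 5′ to 3′ as in the scanner files, with the bases that both share in capitals.
O10905: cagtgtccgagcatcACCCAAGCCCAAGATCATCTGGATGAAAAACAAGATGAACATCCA
A_72_P035711: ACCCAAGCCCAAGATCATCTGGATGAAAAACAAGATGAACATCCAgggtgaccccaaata
The shared stretch was 45 bases long, so both read nearly the same part of 1 transcript and are not independent. The MYOG probe A_72_P177666 is shown because it ends, in capitals, on a stop triplet and so lies at the very end of the coding sequence.
A_72_P177666: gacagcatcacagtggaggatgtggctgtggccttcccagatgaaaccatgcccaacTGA
Of the ACTC1 probes A_72_P751785 and A_72_P100991 the last 30 bases are given, because the ACTC1 probes disagreed in their response to HS.
A_72_P751785, last 30 bases: ttagtctactttacgttcaggatgacaggt
A_72_P100991, last 30 bases: ttctcctccttggagaagagctatgaactg

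Values are log2 of the median spot intensity after quantile normalisation. A probe was tested where it was well above background, by the scanner software, on at least 75% of the arrays of 1 group. This kept 41517 probes, among them 18 of the 19 probes found by GeneName and 26 of all 27. The probe left out was O14091 of MYF5, which was well above background on 11 of 35 arrays. All other member probes but that of CDH15 were well above background on all 35 arrays. Differences are from limma with breed and temperature as terms, with p-values adjusted by Benjamini-Hochberg over all kept probes, and a call is an adjusted p below 0.05. A gene is counted by its brightest kept probe. For DES (A_72_P177466) and ACTC1 (A_72_P444505) this probe lay near the top of the array, above 99.62% and 99.86% of kept probes by mean. Where groups are said not to overlap, the share of all probes without overlap is not given. Whether such a separation is unusual can therefore not be judged, and it is given as a description of the values only.

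Under HS, 4 of the 8 genes tested by the rule were called: MYOG and VIM were higher, DES was higher with its value turning to -0.0030 when the processed signal was used, and MYBPH was lower. Counted in the same way, by the brightest kept probe, 18% of 9704 genes with a symbol were called. Among all kept probes, counted singly, 16% were called, 7.73% higher and 8.3% lower. The share of higher among the called was thus 48.2%, but it was 27.2% after scaling to the 75th percentile, 37.5% by the processed signal and 86.6% after scaling to spike-in controls. The count of 4 held with the other names added. With the mean of all kept probes of a gene in place of the brightest it was 5, ACTC1 being added as higher (0.47, SE 0.13, adjusted p = 0.011), opposite in sign to its brightest probe. In the remaining genes the brightest probe did not pass, although a dimmer probe of MYOD1 and a dimmer probe of ACTC1 did. A p that missed the threshold does not show that levels were equal. The plots of the 10 genes by group and of the change of each probe show the values behind these counts.

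**Figure D1:**
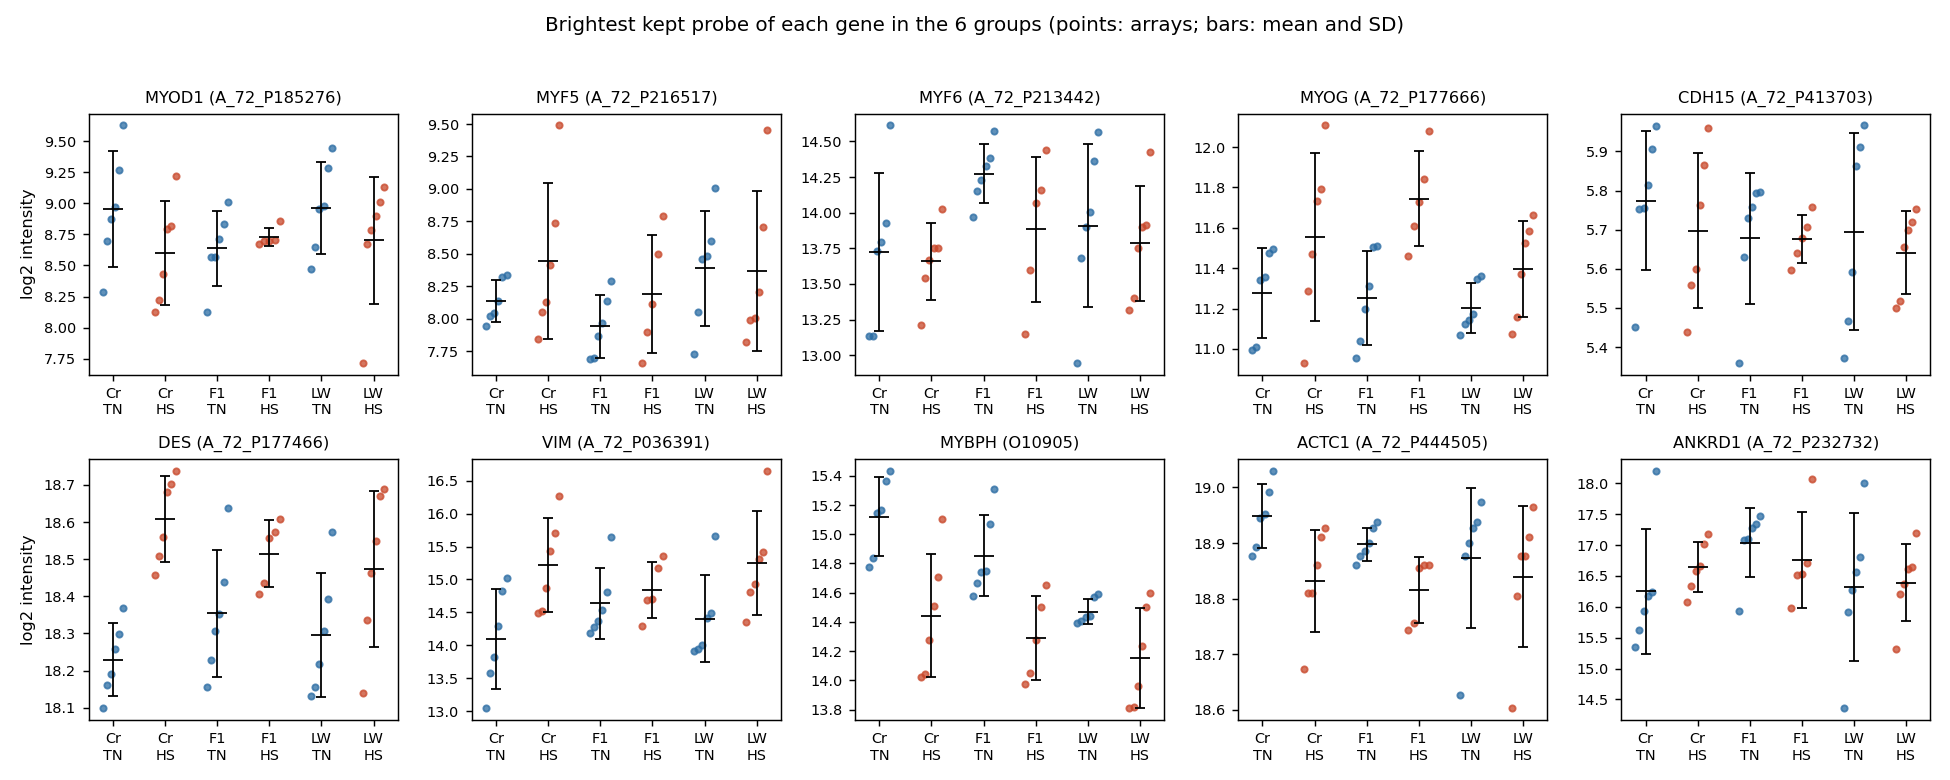
Log2 intensity of the brightest kept probe of each gene on the 35 arrays (points), by breed (Cr, Creole; F1; LW, Large White) and condition (TN, blue; HS, red), with the mean and SD of each group (bars). The mean of MYBPH was lower in HS than in TN in each breed, while the points of MYF5, MYF6 and ANKRD1 overlapped throughout.

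**Figure D2:**
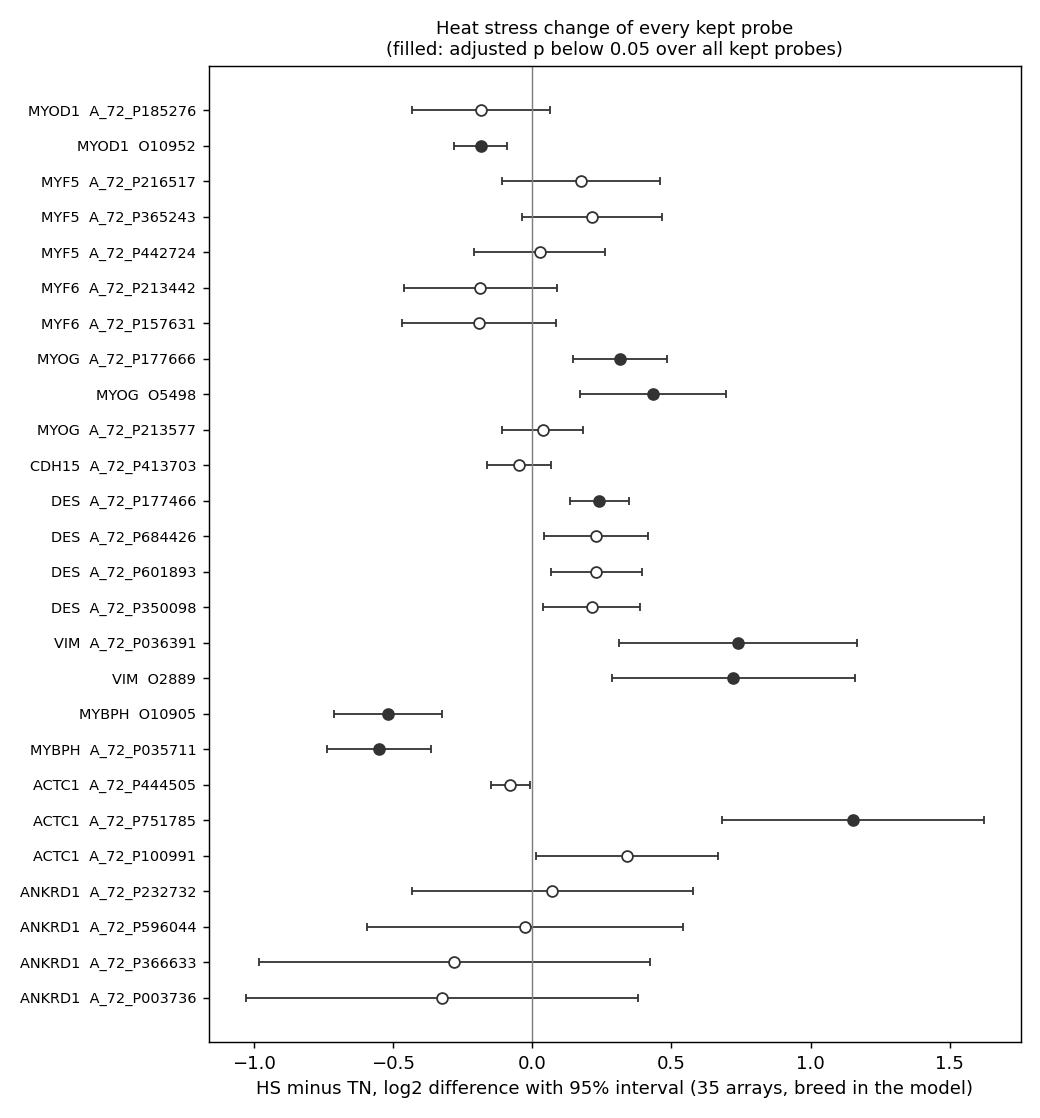
Difference between HS and TN (log2, with its 95% interval) of the 26 kept probes, from limma with breed in the model. Filled points passed the adjusted p threshold over all 41517 kept probes. The ACTC1 probes lie between -0.08 and 1.15.

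MYOG, which commits myoblasts to fuse and differentiate, was higher under HS. By A_72_P177666, the lowest, median and highest of the 18 TN arrays were 10.95, 11.26 and 11.51. Those of the 17 HS arrays were 10.93, 11.58 and 12.11. The groups overlapped at their low ends, yet 10 HS arrays lay above every TN array. The log2 difference was 0.31 (SE 0.09, adjusted p = 0.0124), a 1.24-fold rise, and 14 of 17 HS arrays lay above the TN mean of their breed. A second probe, O5498, gave 0.44 (SE 0.13, adjusted p = 0.0239) and varied with the first from array to array (r = 0.861 over 35 arrays after removal of group means). With the connective tissue mean in the model neither was called (0.23, adjusted p = 0.205 for the first and 0.32, adjusted p = 0.266 for O5498), and with the leukocyte mean O5498 was not (0.41, adjusted p = 0.121). The remaining probe, A_72_P213577, gave 0.04 (SE 0.07, adjusted p = 0.771). By breed, the A_72_P177666 difference was 0.49 in F1, 0.27 in Creole and 0.19 in Large White, none of them called, with adjusted p from 0.275 to 0.52. In F1 the 5 HS arrays ran from 11.46 to 12.08 and the 6 TN arrays from 10.95 to 11.51, so that they overlapped only slightly. Within the 4 slides that held both conditions in numbers that allowed it, the differences were 0.05, 0.46, 0.53 and 0.23. The breeds were not evenly split between TN and HS within these slides. This limits the values within slides of every member given below as well.

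MYOD1 did not show the same rise. By its brighter probe A_72_P185276, the TN arrays had a lowest, median and highest value of 8.13, 8.86 and 9.63, and the HS arrays 7.72, 8.71 and 9.22. The groups overlapped widely, with 9 HS arrays below and 8 above the TN mean of their breed, and the difference was -0.18 (SE 0.13, adjusted p = 0.343). The dimmer probe O10952 gave -0.18 too, with less spread (SE 0.05, adjusted p = 0.0101). By this probe the TN values were 5.81, 6.23 and 6.40 and the HS values 5.80, 6.02 and 6.20. All 17 HS arrays lay below the TN mean of their breed. The dimmer probe lost its call under 5 alternatives, among them scaling to the spike-in controls (-0.14, adjusted p = 0.178) and background correction by normexp (-0.11, adjusted p = 0.0544). The probes varied together only in part (r = 0.455).

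MYF5 and MYF6, which are next to each other on the chromosome with no protein-coding gene between them in RefSeq, were not called. MYF5, the earliest of the factors in development, had 3 kept probes, all reached by its gene ID, with differences of 0.18, 0.22 and 0.03 (adjusted p from 0.259 to 0.909). By A_72_P216517 the TN values were 7.68, 8.09 and 9.01 and the HS values 7.66, 8.13 and 9.49. The HS groups reached higher than the TN groups, through 1 high array each in Creole (9.49) and Large White (9.46). The probe that carried MYF5 as its GeneName, O14091, is complementary to A_72_P365243 over 41 bases, of which 40 match, so they read opposite strands. The scanner software put O14091 above background on 6 TN arrays of 18 and 5 HS arrays of 17, with values from 5.01 to 5.97.

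MYF6 gave -0.19 by both of its probes (SE 0.14, adjusted p = 0.386 and 0.381). By A_72_P213442 the TN values were 12.95, 13.99 and 14.61 and the HS values 13.15, 13.75 and 14.44, and they overlapped almost wholly. The F1 TN arrays were the highest group by mean, 14.27 ± 0.21 (SD, n = 6), and Creole HS the lowest, 13.66 ± 0.27 (SD, n = 6). F1 minus Creole was 0.40 (SE 0.17, adjusted p = 0.461). Large White TN (13.91 ± 0.57), F1 HS (13.88 ± 0.51, n = 5), Large White HS (13.78 ± 0.40), Creole TN (13.72 ± 0.55) and Creole HS followed, each within 1 SD of the next.

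CDH15, M-cadherin, joins satellite cells to the fibre. Its only probe by name is described in the scanner files as P-cadherin, a different cadherin, so its identity is uncertain. It exceeded background on 13 TN arrays of 18 and 12 HS arrays of 17. It passed the filter through Creole TN (6 of 6 arrays) and F1 HS (4 of 5 arrays). Levels ran from 5.36 to 5.97 in TN and from 5.44 to 5.96 in HS, within the same range, and the difference was -0.05 (SE 0.06, adjusted p = 0.641). A probe with no gene name but the same 60 bases gave -0.06 (SE 0.06, adjusted p = 0.493).

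DES, the intermediate filament that ties the Z-discs of neighbouring myofibrils, was higher under HS by its brightest probe, although the sign of the difference turned with the processed signal (-0.0030, adjusted p = 0.98). By A_72_P177466 the TN values were 18.10, 18.28 and 18.64 and the HS values 18.14, 18.56 and 18.74. In Creole the 6 HS arrays (18.46 to 18.74) lay wholly above the 6 TN arrays (18.10 to 18.37), while F1 and Large White overlapped. The difference was 0.24 (SE 0.05, adjusted p = 0.0031), a 1.18-fold rise, with 16 of 17 HS arrays above the TN mean of their breed. The other 3 probes gave 0.23, 0.23 and 0.21 but were not called (adjusted p = 0.0938, 0.0527 and 0.0962). With array weights all 3 passed (adjusted p = 0.0166, 0.0161 and 0.0128). A_72_P601893 passed in 3 of the 14 alternatives, slide as a block among them (adjusted p = 0.0261), and in 9 of the 35 fits with an array left out. A_72_P684426 and A_72_P350098 each passed in 2 of the 14, the other being spike-in scaling (adjusted p = 0.0447 and 0.0251), and in 2 of the 35. By the brightest probe the DES value depended on the scaling: it was 0.02 (adjusted p = 0.79) after scaling to the 75th percentile and 0.10 (adjusted p = 0.13) after scaling to the median of each array. With the leukocyte marker mean in the model it was 0.10 (adjusted p = 0.176). Within Creole the difference by this probe was 0.09 (adjusted p = 0.562) after scaling to the 75th percentile.

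VIM, the intermediate filament of connective tissue cells, leukocytes, endothelium and immature fibres, had the largest difference among the genes called by their brightest probe. By O2889 the TN values were 13.05, 14.31 and 15.81 and the HS values 14.25, 14.93 and 16.69. The ranges overlapped over most of their length, with 2 HS arrays above every TN array, although 15 of 17 lay above the TN mean of their breed. The difference was 0.72 (SE 0.22, adjusted p = 0.0241), a 1.65-fold rise. The VIM probe A_72_P036391 has the same 60 bases and gave 0.74 (SE 0.22, adjusted p = 0.019), so that both spots measured 1 thing (r = 0.997). By breed the O2889 difference was 1.09 in Creole, 0.81 in Large White and 0.23 in F1, none called (adjusted p = 0.0983, 0.274 and 0.949). Within slides it was 1.25, -0.17, 1.38 and 0.64.

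Values of other cells moved beside VIM and DES. In bulk muscle, more cells of a type and more RNA per cell cannot be told apart. The mean of 10 leukocyte markers, all 10 measured, was 9.49 ± 0.73 (SD, n = 18, range 7.99 to 10.70) in TN and 10.21 ± 0.48 (SD, n = 17, range 9.36 to 11.02) in HS, and 5 of the 10 were called, all higher. That of 10 connective tissue markers was 12.31 ± 0.34 (range 11.10 to 12.80) in TN and 12.61 ± 0.20 (range 12.26 to 12.88) in HS, with 3 called, all higher. Over 9704 genes with a symbol 18% were called. None of these markers was at background throughout. The brightness of the arrays, the log2 of their 75th percentile, was 9.05 ± 0.17 in TN and 9.24 ± 0.24 in HS. The VIM difference by O2889 was 0.004 (adjusted p = 0.989) with the leukocyte mean in the model, 0.39 (adjusted p = 0.408) with the connective tissue mean and 0.34 (adjusted p = 0.325) with brightness. Their part in the VIM and DES differences was not tested.

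MYBPH, myosin-binding protein H, a protein of the thick filament, was lower under HS. By O10905 the TN values were 14.39, 14.75 and 15.44 and the HS values 13.81, 14.28 and 15.10. The conditions overlapped, but 10 of 17 HS arrays lay below every TN array and 15 of 17 below the TN mean of their breed. The difference was -0.52 (SE 0.10, adjusted p = 0.000756), a 1.43-fold decrease, and by A_72_P035711 it was -0.55 (SE 0.09, adjusted p = 0.000298). It was called by both probes in all 14 alternatives run for it and with each of the 35 arrays left out. Within slides it was -0.52, -0.51, -0.87 and -0.38. Beside it, the mean of the 7 measured skeletal muscle markers was 18.81 ± 0.05 in TN and 18.73 ± 0.08 in HS. Of these markers 1 was called (MYH2, lower), or 14.3%, against 18% over 9704 genes with a symbol.

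Probes on the array without a gene name repeated the MYBPH values. One with the 60 bases of A_72_P035711 gave -0.56 (SE 0.09, adjusted p = 0.000166). Another, complementary to A_72_P035711 with 55 of 59 bases matching and measured on all 35 arrays, gave -0.35 (SE 0.06, adjusted p = 0.00043). That probe reads the opposite strand if its design is as written. MYBPH is separated from MYOG by 1 protein-coding gene in RefSeq, and their differences under HS were opposite in sign.

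MYBPH was also the only gene of the set called between breeds. In TN the O10905 levels were 15.12 ± 0.27 (SD, n = 6, range 14.77 to 15.44) in Creole, 14.85 ± 0.28 (range 14.58 to 15.31) in F1 and 14.47 ± 0.09 (range 14.39 to 14.59) in Large White. Creole and Large White did not overlap in TN, and F1 lay between by its mean and overlapped both. In HS they were 14.44 ± 0.42 in Creole, 14.29 ± 0.29 (SD, n = 5) in F1 and 14.15 ± 0.34 in Large White, and all 3 overlapped. Over both conditions Creole minus Large White was 0.47 (SE 0.12, adjusted p = 0.0189), against a background of 3.64% of probes called, 1.73% higher and 1.92% lower. In TN arrays alone the same difference was 0.65 (SE 0.13, adjusted p = 0.0294), and in HS arrays alone 0.29 (adjusted p = 0.838). The difference also missed the threshold after scaling to spike-in controls (0.39, adjusted p = 0.172) and with the connective tissue mean in the model (0.33, adjusted p = 0.257). F1 departed from the midpoint of its parents by 0.03 (SE 0.11, adjusted p = 0.983).

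ACTC1, the actin of heart muscle and of immature skeletal fibres, gave different answers by probe. By the brightest, A_72_P444505, the TN values were 18.63, 18.91 and 19.03 and the HS values 18.60, 18.86 and 18.96. They overlapped, with 13 of 17 HS arrays below the TN mean of their breed, and the difference was -0.08 (SE 0.04, adjusted p = 0.139). It passed the threshold as a decrease after scaling to the 75th percentile (-0.29, adjusted p = 0.0146) and to the median (-0.22, adjusted p = 0.0194). It also passed as a decrease by the processed signal (-0.30, adjusted p = 0.0188) and without replicate 1 of Large White TN (-0.10, adjusted p = 0.0425). The file lists for this probe, beside ACTC1, a transcript that it also lists for ACTB.

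A_72_P751785 rose. Its TN values were 12.45, 14.96 and 15.72 and its HS values 14.57, 16.07 and 17.03. In F1 the 5 HS arrays (15.72 to 16.54) lay wholly above the 6 TN arrays (14.01 to 15.50), and over all breeds 12 of 17 HS arrays lay above every TN array. The difference was 1.15 (SE 0.24, adjusted p = 0.00169), a 2.22-fold rise, with 16 of 17 HS arrays above the TN mean of their breed. By breed it was 1.24 in Creole, 1.19 in F1 and 1.02 in Large White. In Large White 0 of the 41517 kept probes were called higher, so the 1.02 was not called. Whether the differences in Creole and F1 were called is not given here. Within F1 2 of all kept probes were called. Within slides this probe gave 0.79, 0.96, 1.94 and 0.79. Of the 14 alternatives it lost its call in 1, with the connective tissue mean in the model (0.63, adjusted p = 0.132). The remaining probe, A_72_P100991, gave 0.34 (SE 0.17, adjusted p = 0.159), with TN values of 13.23, 14.08 and 14.72 and HS values of 13.01, 14.65 and 15.14. It passed the threshold with the leukocyte mean in the model (0.61, adjusted p = 0.0386) and without Creole HS replicate 1 (0.43, adjusted p = 0.0496). From array to array the second probe varied little with the brightest (r = 0.209) and more with A_72_P100991 (r = 0.576). The plot of the 3 probes shows this on axes of 1 span.

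**Figure D3:**
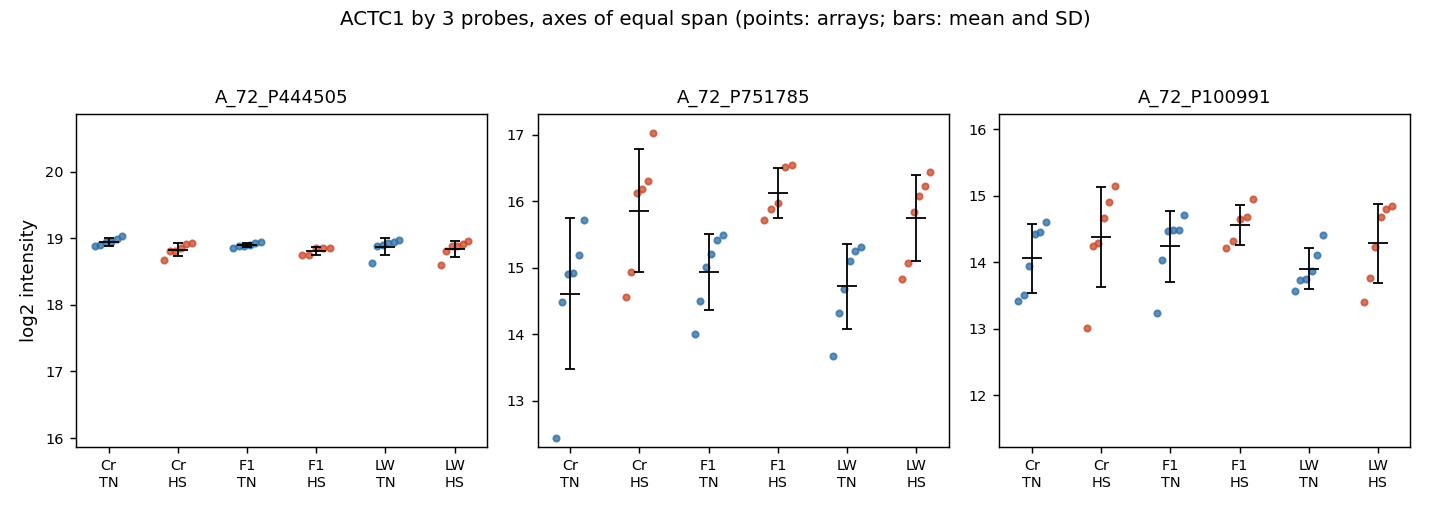
Log2 intensity of the 3 ACTC1 probes on the 35 arrays (points) by breed and condition (labels and colours as in the plot of the 10 genes), with mean and SD (bars), on axes of equal span. A_72_P751785 was higher in HS, with 12 of 17 HS arrays above every TN array, while A_72_P444505 differed by -0.08.

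ANKRD1, a nuclear and sarcomeric protein induced when muscle is stretched or loaded, was measured by 4 probes named CARP. Their differences under HS were 0.07, -0.02, -0.28 and -0.32, none called (adjusted p from 0.58 to 0.966). By A_72_P232732 the TN values were 14.36, 16.41 and 18.21 and the HS values 15.32, 16.57 and 18.07. The spread between animals was wide in both, with an SD of 0.97 in TN and 0.59 in HS. Within slides the difference went from -0.68 to 0.89. F1 stood 0.51 above the midpoint of its parents (SE 0.28, adjusted p = 0.735), not beyond its error after adjustment. The 4 probes formed pairs: A_72_P232732 and A_72_P596044 varied together (r = 0.977), as did A_72_P366633 and A_72_P003736 (r = 0.985), with r from 0.689 to 0.726 across the pairs.

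Between the breeds no other gene of the set was called. None was called for F1 minus Large White, where limma called 0.525% of all probes (0.26% higher and 0.265% lower, 4371 at an unadjusted p below 0.05), for F1 minus Creole (0.477%, with 0.301% higher and 0.176% lower, 3685 unadjusted) or for F1 minus the midpoint (0.246%, with 0.188% higher and 0.0578% lower, 3053 unadjusted). Within Creole, DES (0.38, SE 0.09, adjusted p = 0.0319) and MYBPH (-0.68, SE 0.17, adjusted p = 0.0342) were called, against 1.91% of all probes, 1.03% higher and 0.874% lower. Leaving out single Creole arrays ended 1 or both of these calls for 8 of the arrays. Within F1 and within Large White none was called, where 0.00482% of all probes were called in each (2 probes, and 3444 and 6893 at an unadjusted p below 0.05). The MYBPH difference was -0.56 in F1 and -0.32 in Large White (adjusted p = 0.271 and 0.339). The test of whether the response differed between breeds called 0% of all probes (1593 at an unadjusted p below 0.05), the members included.

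Other genes of fibre formation were read from lists of their pathway. The lists were chosen with earlier results of these data known, so their counts are a description only. TNNT2 was named after its values were seen. Of 11 genes of embryonic, neonatal and regenerating fibres, 7 were measured and all 7 had a positive difference under HS, with a median of 0.75. By name, 5 were called: NES, CHRNA1, CHRNG, NCAM1 and TNNT2. Over 9704 genes with a symbol the median was -0.02 and 18% were called. Nestin (NES), an intermediate filament of immature fibres and of the neuromuscular junction, had TN values of 12.62, 13.43 and 13.99 and HS values of 13.58, 14.27 and 14.97, a difference of 0.90 (SE 0.12, adjusted p = 6.38e-05). The overlap was small, and its 6 other probes were called as well. CHRNA1 and CHRNG, subunits of the acetylcholine receptor, of which the second belongs to the fetal form, rose by 0.88 (SE 0.20, adjusted p = 0.00351) and 0.75 (SE 0.17, adjusted p = 0.00279). NCAM1, an adhesion molecule of satellite cells and denervated fibres, rose by 0.52 (SE 0.09, adjusted p = 0.00046). TNNT2, cardiac troponin T, rose by 1.38 (SE 0.46, adjusted p = 0.0366), with TN values of 8.12, 11.78 and 13.11 and HS values of 9.50, 12.89 and 13.97.

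The remaining lists moved less. Under HS 16.7% of the measured satellite cell and Notch genes, 20% of the fusion genes and 14.3% of the Z-disc list were called. These shares were near the 18% called over 9704 genes with a symbol. Of 12 measured satellite cell and Notch genes, NCAM1 was higher and PAX7 lower. PAX7, the factor that marks satellite cells, had TN values of 7.88, 8.48 and 8.77 and HS values of 7.88, 8.08 and 8.38, and fell by 0.30 (SE 0.07, adjusted p = 0.00285). None of the 20 measured partners and regulators of the myogenic factors was called (median -0.08). CD81 (0.29) was called among 5 fusion genes. Of 21 genes of the Z-disc, intermediate filaments and mechanical stress, WWTR1 was higher (0.27) and MYBPC2 (-0.50) and TTN (-0.37) were lower. Of 3 measured cardiac markers none was called.

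The array-to-array pattern of the second ACTC1 probe resembled that of some of the same regenerating-fibre genes, and of genes outside that list. After removal of group means, the 10 genes of 9704 with the highest Pearson r to A_72_P751785 over 35 arrays included CHRNA1 (0.865), CHRNG (0.848), NES (0.797) and TNNT2 (0.794). The first of the 10 was DCLK1 (0.916), and the rest were CASQ2 (0.861), ABR (0.854), WWTR1 (0.823), AIG1 (0.789) and IL18 (0.789). The r was 0.522 for NCAM1 and -0.05 for PAX7. This probe was examined in this way after its values were seen, and the arrays share their normalisation and hybridisation slides. The scatter of the values shows TN and HS arrays along 1 band.

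**Figure D4:**
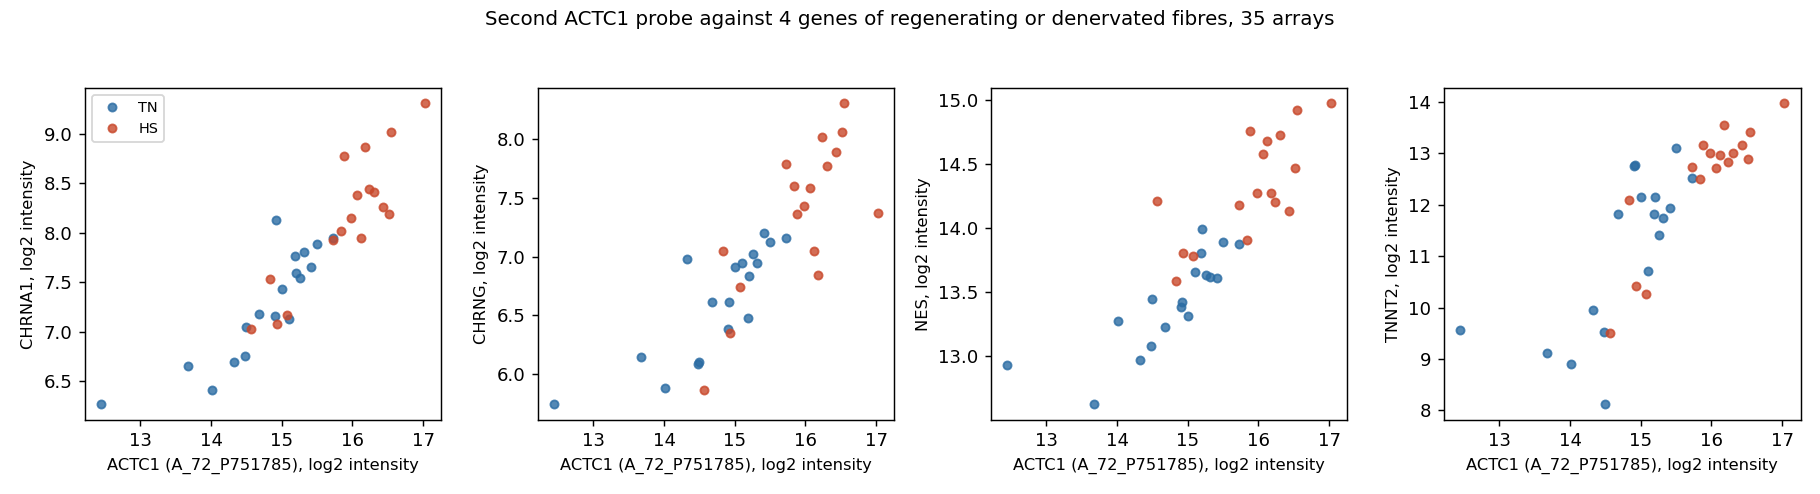
Log2 intensity of CHRNA1, CHRNG, NES and TNNT2 (y axes) against that of the ACTC1 probe A_72_P751785 (x axes) on 18 TN arrays (blue) and 17 HS arrays (red). The values rose together, within TN as within HS, and HS arrays reached the highest values of each gene.

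By the brightest probe of each member, the genes with the most similar pattern differed from member to member. Each r is over 35 arrays after removal of group means, among 9694 genes. For VIM they were ANXA1 (r = 0.972), SLC25A5 (0.971) and CTSZ (0.965). For ANKRD1 they were TRAFD1 (0.871), XIRP1 (0.867) and HSPB8 (0.821), and for MYF6 ABHD4 (0.821) and MCL1 (0.756). MYOG was closest to C2H11ORF94 (0.767), CASQ2 (0.731) and TAGLN3 (0.722). MYBPH was closest to FHOD1 (0.663), GRIPAP1 (0.596) and TCAP (0.575). For DES they were NKG7 (0.870), FAM20A (0.868) and PTGDS (0.865). The brightest ACTC1 probe was closest to ACTB (0.914), RPL7A (0.811) and MYBPC2 (0.799). MYOD1 was closest to RTKN (0.660), CITED1 (0.657) and MYH2 (0.613), MYF5 to XRCC2 (0.843), DBF4 (0.826) and AHCY (0.825), and CDH15 to CSNK1G2 (0.731), PPFIA1 (0.680) and MED22 (0.676).

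Among the members themselves, 6 of 45 pairs passed after adjustment over the pairs by Pearson's r and 4 by Spearman's rho, of which 3 passed by both (permutation test within groups, two-sided). VIM and MYF5 had r = 0.744 and rho = 0.735 (permutation p = 1e-05 for each, the smallest the permutations can give, adjusted p = 0.000225), and r = 0.650 without the 2 arrays farthest from the median of VIM. ANKRD1 and MYF6 had r = 0.693 (permutation p = 0.00029, adjusted p = 0.00435) and rho = 0.447 (permutation p = 0.0127, adjusted p = 0.0818), with r = 0.531 without the 2 farthest arrays. DES and VIM had r = 0.767 and rho = 0.720 (permutation p = 1e-05 for each, adjusted p = 0.000225) and 0.727 without the 2 arrays. After scaling to the 75th percentile the sign of this pair turned (r = -0.43), and so did that of DES and MYF5 (r = 0.513, rho = 0.438, permutation p = 0.00547 and 0.0197, adjusted p = 0.041 and 0.111, 0.456 without 2 arrays, against -0.40). Both pairs rest on the brightest DES probe. By A_72_P684426, A_72_P601893 and A_72_P350098 of DES, r with VIM was 0.245, 0.341 and -0.08. With MYF5 it was 0.09, 0.20 and -0.21. The brightest ACTC1 probe varied with MYOD1 (r = 0.597, rho = 0.527, permutation p = 0.00176 and 0.00257, adjusted p = 0.0198 and 0.0324, 0.459 without 2 arrays) and with MYOG (r = 0.470, rho = 0.445, permutation p = 0.00407 and 0.0117, adjusted p = 0.0366 and 0.0818, 0.521 without 2 arrays). With the dimmer MYOD1 probe O10952 its r was 0.235. With O5498 and A_72_P213577 of MYOG it was 0.207 and 0.071. The ACTC1 probes A_72_P751785 and A_72_P100991 had r = 0.687 and 0.606 with the brightest MYOG probe. With O5498 they had 0.606 and 0.278, and with A_72_P213577 0.399 and 0.031. Their r was 0.327 and 0.191 with the brightest MYOD1 probe, and -0.116 and -0.221 with O10952. MYOG and the CDH15-named probe passed by rho alone and were the only negative pair to pass (rho = -0.499, permutation p = 0.00288, adjusted p = 0.0324), with r = -0.427 (permutation p = 0.0144, adjusted p = 0.0813) and r = -0.322 without 2 arrays. With slide means removed, r of the 6 pairs that passed by Pearson ran from 0.396 to 0.754.

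The plot of settings shows 5 called probes, 1 each of MYBPH, MYOG, DES, VIM and ACTC1, under other processing. MYBPH was called throughout. MYOG lost its call in 1 of the 14 alternatives.

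**Figure D5:**
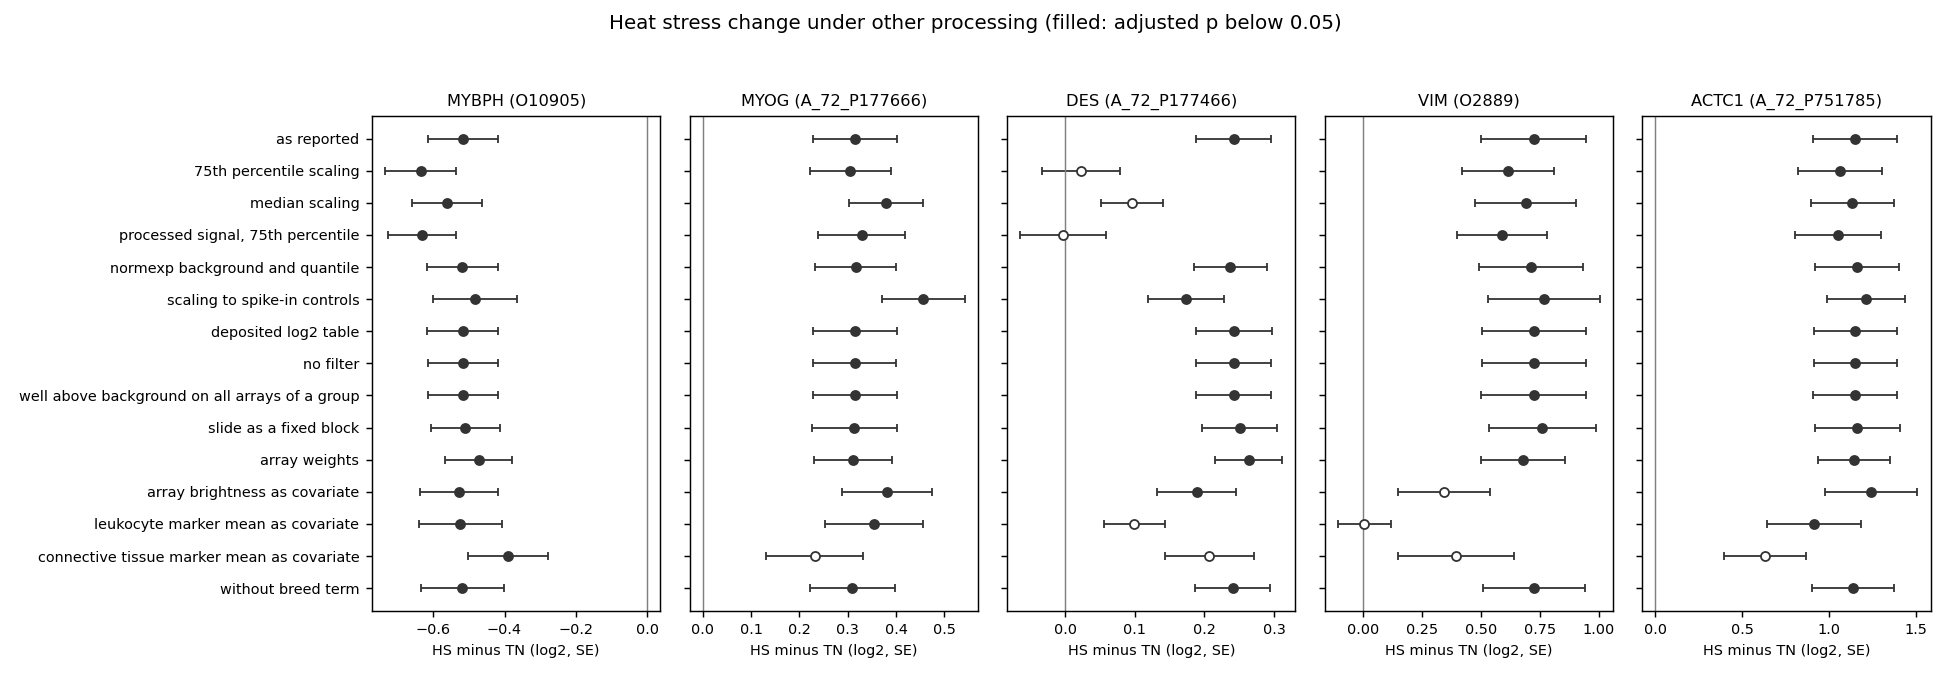
Difference between HS and TN (log2, with its SE) of 5 probes as reported and under 14 alternatives of scaling, filter and model. Filled points had an adjusted p below 0.05. MYBPH was called in each, VIM lost its call under 3, and DES lost its call under 5, in 1 of which, the processed signal, its sign turned.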

How the data were processed

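Total RNA of longissimus dorsi muscle was labelled with Cy3 and hybridised to 1-colour Agilent porcine arrays of 60306 spots. Per the labels, Agilent Feature Extraction 10.10.1.1 gave the deposited scanner intensity values, which were not normalised. The authors also deposited a log2 table of 40649 probes, median signals after quantile normalisation and a filter on background flags. It was used as an alternative. No build of the genome entered the analysis.

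Median signals (gMedianSignal) were quantile normalised and put on the log2 scale, with 105 spots flagged as outliers left out and 0 saturated. Depth does not apply to arrays, and the precision is limited by their number. A probe was kept if the scanner software marked it above background in 75% or more of a group's arrays. limma 3.58.1 (R 4.3.3) was fitted to all 35 arrays, with breed and temperature, or with 6 group means for the response within a breed and the interaction. The methods' random effects of pen, day of slaughter and each parent could not be fitted from the labels. P-values measure the spread between animals as if these were unrelated.

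Per the labels there were 5 to 6 arrays in a group. Replicates were numbered in order of deposit, which pairs no samples. The 5 slides (8 arrays each in 4 of them) served as a block in 1 alternative. Slide 5 held too few arrays for a value of its own. The highest correlation between 2 arrays was 0.996, and none were identical. On simulated data of 41465 probes, 98% of 200 probes changed by 1 log2 unit were recovered for HS minus TN, 95% for Creole minus Large White, 89% within Creole, and 87.5% within F1 as within Large White. Smaller changes were not simulated.

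The members and lists were chosen with earlier results of these data known. The named genes were the members and, of the lists, those called (at most 4 by p from a list in a contrast) or on which a result turned, and the 3 genes varying most like each member. TNNT2, beyond the limit for its list, and the genes near the second ACTC1 probe were named after their values were seen. A sequence and a gene that met these rules are not reported here. Symbols of probes without one were taken from RefSeq accession, gene ID or synonym in the RefSeq table of assembly Sscrofa11.1. Alternatives of scaling, background, filter, block, weights, covariates and arrays left out were run. Adding other names of the genes was chosen after seeing the data.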

Additional observations from a re-analysis of the deposited data

Results flagged for a closer look

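Among 60 checks of a single array standing apart from its group, in the brightest probe of each member, 6 passed a 95% limit, where about 3 are met by chance. In MYOD1 (A_72_P185276), F1 HS replicate 2 was the highest of 5 (8.85 against 8.71 for the next), with a gap of 0.807 of the range, and Large White HS replicate 5 was the lowest of 6 (7.72 against 8.67), with 0.676. In ANKRD1 (A_72_P232732), Creole TN replicate 2 was the highest (18.21 against 16.23), with 0.691, and F1 TN replicate 6 the lowest (15.94 against 17.08), with 0.743. Large White TN replicate 1 was lowest in ACTC1 (A_72_P444505, 18.63 against 18.88), with 0.721. Large White TN replicate 6 was highest in VIM (A_72_P036391, 15.67 against 14.49), with 0.670. The cause was not tested.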

How the results depend on the processing

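The main count of 4 members called for HS minus TN was 2 with the leukocyte mean in the model and 1 with the connective tissue mean, and 5 for the mean of all probes of a gene, where ACTC1 was added. With brightness in the model VIM (O2889) lost its call (0.34, adjusted p = 0.325). After 75th percentile scaling, median scaling and by the processed signal, DES lost its call and ACTC1 (A_72_P444505) was called as lower. For Creole minus Large White, the count of 1 became 0 with the connective tissue mean, after scaling to spike-in controls and in HS arrays alone. Within Creole, the count of 2 was 1 for the mean of all probes of a gene, for 75th percentile scaling, for median scaling and for the processed signal, and 0 for spike-in scaling and with brightness, leukocyte mean or connective tissue mean in the model. With single arrays left out it ran from 0 to 2: it was 0 without Creole TN replicates 1, 5 or 6 or Creole HS replicates 1 or 3, and 1 without Creole HS replicates 4, 5 or 6. DES (A_72_P177466) for HS minus TN was -0.0030 (adjusted p = 0.98) by the processed signal. The cause of these changes was not tested. The share of higher among called probes for HS minus TN was 48.2%, against 27.2% after 75th percentile, 37.5% by the processed signal and 86.6% after spike-in scaling, while the median over all kept probes moved by less than 0.1. Over all member probes and comparisons, 10958 values kept their side of the threshold and, where the comparison has a direction, that direction. The test of the interaction has none. A further 56 values lost and 29 gained a call, and 422 that were not called changed sign. No paired analysis was possible because the labels give no replicate numbers that link animals across groups. The signal over background limits the CDH15-named probe and O14091 of MYF5, which exceeded it on 25 and 11 of the 35 arrays.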
